A study of Mus musculus with 32 samples.

Results

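A pair of oligonucleotides given to the same kind of mouse were compared here, to see which striatal transcripts differ with the base sequence of the one under study. The samples were chosen by their titles: 8 libraries from YAC128 mice given AON12.1 and 8 from YAC128 mice given a scrambled oligonucleotide, 16 of the 32 libraries of the series. YAC128 mice are transgenic for the human gene of Huntington disease, in a mutant form with a long glutamine tract that was brought in on a yeast artificial chromosome, and here they have a B6 background. According to the title of the study, its subject is the site at which caspase-6 cleaves HTT; the sequence of neither oligonucleotide was used here. Each of these 16 mice was injected into the lateral ventricle 3 times from about 6 months of age, at the outset and 2 and 4 weeks later, with 500 µg of oligonucleotide in 10 µL of artificial cerebrospinal fluid (aCSF). Striatum was taken at 12 months, after an MRI scan. The remaining libraries, 8 from YAC128 mice and 8 from wild-type (WT) littermates that received aCSF alone, serve as background, and no WT mouse received an oligonucleotide.

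An antisense oligonucleotide is a short modified nucleic acid that pairs with a chosen stretch of RNA and can change its splicing or its stability. Its backbone and modifications can also act on cells without pairing, for example on microglia and other immune cells, and a scrambled oligonucleotide of the same kind is the usual control for that. A difference between both groups can come from either sequence, so the called genes are also set beside the aCSF libraries. The striatum consists mostly of inhibitory projection neurons, which carry dopamine receptors and release enkephalin, dynorphin or substance P, together with interneurons, oligodendrocytes of the fibre bundles, astrocytes and microglia.

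The libraries held 658934 to 1097099 gene counts with AON12.1 and 743457 to 1419313 with the scrambled oligonucleotide. Of the counts in each file, 17.5% to 33.7% lay in no annotated feature with AON12.1, and 19.9% to 26.8% with the scrambled oligonucleotide. The mean shares of 23.8% ± 6.70 and 22.1% ± 2.41 (SD, n = 8 each) differed by 1.71 percentage points (exact permutation test over 12870 splits, two-sided, p = 0.503, adjusted p = 0.983 over 4 measures of library quality). AON12.1 replicates 3 and 4 had the highest shares, at 33.3% and 33.7%. The labels number the mice in 2 series. In series 18 AON12.1 stood at -4.09 points relative to scrambled (2 and 2 libraries, where an exact test cannot go below p = 0.333), and in series 19 at 3.65 points (6 and 6 libraries, exact permutation p = 0.258). Striatal markers were abundant in every library, with a summed level of 30 projection neuron genes of 8259 to 15405 CPM (counts scaled to the size of the library) with AON12.1 and 5832 to 12140 CPM with the scrambled oligonucleotide. Markers of neighbouring tissue were present as well: 17 cortical excitatory neuron genes summed to 2280.1 to 4319 CPM and 2223 to 5775 CPM, and 12 choroid plexus genes to 37.1 to 214 CPM and 40.5 to 90.1 CPM, and no gene of either list was at 0. In bulk tissue, fewer cells of a type and less RNA per cell cannot be told apart.

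Few transcripts differed between the oligonucleotides. Of 10679 tested genes, 15 were called at an adjusted p under 0.05, a background of 0.14%, from the quasi-likelihood test of edgeR, adjusted by Benjamini-Hochberg across the whole table. With AON12.1, 10 of them rose (0.0936% of genes tested) and 5 fell (0.0468%). The genes that rose were the noncoding small nucleolar RNA (snoRNA) hosts 1110038B12Rik and Gas5, the complement gene C4b, the linker histone gene Hist1h1c, the integrin gene Itgb4, the adaptor gene Gab1, Dcdc2a, and Qdpr, Gsn and Trf, which oligodendrocytes express. The genes that fell were Nrip3, Nalcn, Alkbh6, Rnf157 and the noncoding 2900060N12Rik. Protein-coding genes made up 12 of the 15.

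Across all genes the median log2 fold change was 0.0074, and the values from the 5th to the 95th percentile ran from -0.32 to 0.33. The median SE was 0.14 for the 7834 genes above 20 CPM and 0.24 for the rest. For 7647 genes (71.6%) the 95% interval lay within 1.5-fold in both directions, and for the other genes it reached beyond that. An unadjusted p under 0.05 was reached by 774 genes, or 7.25%, of which 362 had a higher and 412 a lower value. When the test was set to ask for a change of more than 1.2-fold (glmTreat in edgeR), 4 genes passed (0.0375%), namely 1110038B12Rik, C4b, Hist1h1c and Itgb4. The 8 and 8 libraries did not overlap for 9 genes (0.0843%). Of these, 8 were called: 1110038B12Rik, C4b, Hist1h1c, Itgb4, Dcdc2a, Gsn and Gab1 were higher in every AON12.1 library, and Nrip3 was lower. With only these 2 groups in the fit, which leaves fewer libraries to estimate the spread, 7 genes were called, and Nalcn, Qdpr, Gsn, Gab1, Trf, Alkbh6, Rnf157 and Gas5 were not.

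**Figure D1:**
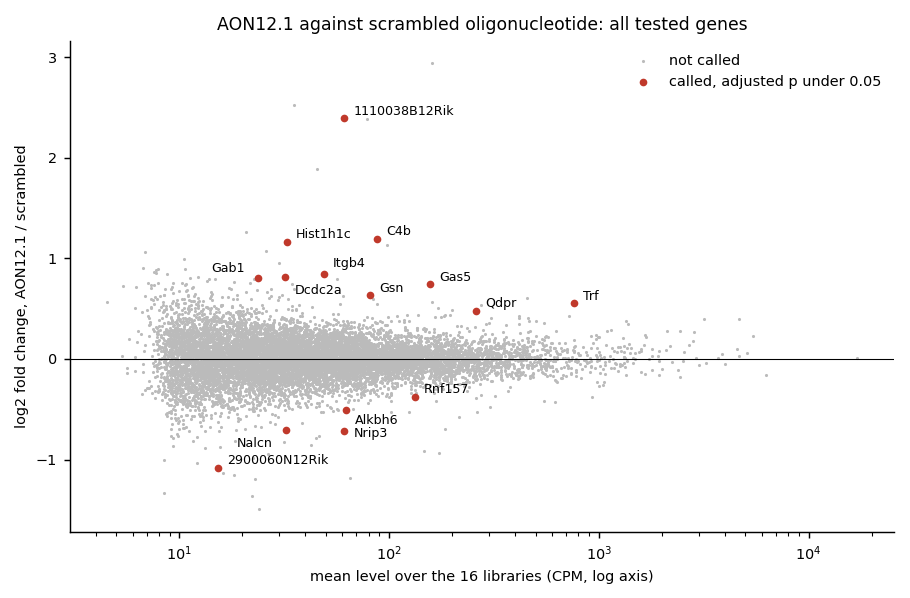
Each point is 1 of the 10679 tested genes, with its mean level over the 16 libraries (CPM, log axis) against its log2 fold change between AON12.1 and scrambled libraries; the 15 called genes are red and named. 1110038B12Rik stands at 2.39, while most genes lie between -0.32 and 0.33, and genes in grey, with values up to 2.94, were not called.

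The largest called change was in 1110038B12Rik (ENSMUSG00000092203), a noncoding transcript of chromosome 17 whose annotated gene holds the snoRNA Snord52. Host genes of this kind are spliced to release snoRNAs from their introns, and the remaining spliced RNA is often short-lived. Many of them start transcription in a run of pyrimidines, as the mRNAs of ribosomal proteins do. The 300 bases around an annotated start (250 before, 50 after) are shown for this gene and for Gas5, the other snoRNA host that rose, because both are of this kind. The table holds 2 starts for each gene. For 1110038B12Rik they lie 3 bases apart and both windows hold the same run, and for Gas5 the other window, chr1:161034351-161034650, has no such run. They come from RefSeq on the GRCm38.p6 build, while the counts use GRCm39. Capitals mark a C followed by at least 4 further C or T that begins within 3 bases of the start, searched on the transcribed strand's own direction only, a definition chosen after these genes' values were seen. The windows are chr17:34952419-34952718 on the minus strand and chr1:161034916-161035215 on the plus strand.
1110038B12Rik: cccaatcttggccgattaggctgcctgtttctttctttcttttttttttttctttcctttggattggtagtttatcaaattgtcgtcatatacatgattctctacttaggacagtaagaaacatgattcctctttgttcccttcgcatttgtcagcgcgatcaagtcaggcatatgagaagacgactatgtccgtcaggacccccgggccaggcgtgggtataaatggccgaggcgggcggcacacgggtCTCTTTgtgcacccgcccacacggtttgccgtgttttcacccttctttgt
Gas5: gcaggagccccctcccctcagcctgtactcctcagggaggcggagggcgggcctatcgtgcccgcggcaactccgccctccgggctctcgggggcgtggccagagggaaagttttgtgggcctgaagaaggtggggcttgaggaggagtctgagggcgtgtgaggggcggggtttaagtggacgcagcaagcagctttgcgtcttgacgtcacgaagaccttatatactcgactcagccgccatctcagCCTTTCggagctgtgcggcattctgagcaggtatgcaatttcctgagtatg
Such a run was present in 11.5% of the 32851 windows of the table, in at least 1 window of 13.5% of its 27025 genes, and likewise in 2 of the 10 called genes that have a window there, which are these. Of 13 tested snoRNA hosts with a window, 5 (38.5%) had one.

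In the AON12.1 libraries 1110038B12Rik lay between 87.2 and 134 CPM with a median of 97.8 CPM, and in the scrambled libraries between 10.6 and 27.6 CPM with a median of 18.9 CPM. Every AON12.1 library was thus above every scrambled one, and the gap between the groups, from 27.6 to 87.2 CPM, was wider than either group's own spread. The rise was 5.25-fold (95% interval 4.28 to 6.44), or 2.39 ± 0.15 on the log2 scale (SE, adjusted p = 5.17e-15). YAC128 mice given aCSF had 9.78 to 25.6 CPM and WT mice 12.96 to 22.5 CPM, levels like those of the scrambled group. Against aCSF the log2 fold change was 2.53 (adjusted p = 9.28e-16) with AON12.1 and 0.14 (adjusted p = 0.83) with the scrambled oligonucleotide. All 32 other settings and subsets called it, with values from 2.30 to 2.61.

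Gas5 (ENSMUSG00000053332, chromosome 1) is a noncoding snoRNA host known for accumulating when cell growth stops. Its AON12.1 libraries lay between 108 and 280 CPM with a median of 202.5 CPM, its scrambled libraries between 72.5 and 139.9 CPM with a median of 122 CPM. The groups overlapped through AON12.1 replicate 6, at 107.7 CPM, which stood below 6 of the scrambled libraries. Gas5 rose by 0.74 ± 0.16 on the log2 scale (adjusted p = 0.0308). Its call was lost in 8 of 16 fits that left out 1 library (AON12.1 replicates 1, 2, 3 and 7, scrambled replicates 4, 5, 7 and 8), with adjusted p from 0.0618 to 0.104 and log2 values between 0.65 and 0.83 over the 16 fits. The annotated snoRNAs inside both host genes had 0 counts in all 16 libraries, which were primed on poly(A).

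Of the 15 tested snoRNA hosts, 2 rose and 0 fell, and 12 had a higher value, with a median log2 fold change of 0.15 against 0.0074 for all genes. Set against aCSF, the list's median was -0.06 with AON12.1 and -0.05 with the scrambled oligonucleotide. Snhg3, a host on chromosome 4, was at -0.46 ± 0.22 (adjusted p = 0.684). The list's median depended on the libraries: it was 0.30 in series 19, -0.19 in series 18, and 0.0019 with a covariate for the share of counts outside features. It was 0.02 without scrambled replicate 4, and 0.24, 0.23 and 0.24 without scrambled replicate 2, AON12.1 replicate 5 and AON12.1 replicate 8. 1110038B12Rik and Gas5 had higher means with AON12.1 in both number series, at 117 against 18.9 CPM and 231 against 132 CPM in series 18, and at 97.9 against 19.6 CPM and 187 against 113 CPM in series 19.

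C4b (ENSMUSG00000073418) lies on the same chromosome, 17, and encodes complement factor 4, which the classical pathway cleaves after C1q binds its target; in brain it is made by reactive astrocytes and oligodendrocytes among others. The 8 AON12.1 libraries ranged from 73.2 to 175 CPM around a median of 117 CPM, and the scrambled libraries from 41.4 to 69.4 CPM around a median of 47.6 CPM. AON12.1 replicate 6 came closest to the scrambled group and was still above it. The rise was 2.29-fold (1.85 to 2.83), or 1.19 ± 0.15 on the log2 scale (adjusted p = 6.67e-06). Mice given aCSF had 31.0 to 45.6 CPM, and against them C4b was 1.64 ± 0.16 higher on the log2 scale with AON12.1 (adjusted p = 3.2e-09) and had a value of 0.44 ± 0.17 with the scrambled oligonucleotide (adjusted p = 0.373). Its near copy C4a had 20 counts over all AON12.1 libraries and 14 over all scrambled libraries, where C4b had 885 and 401. Reads that match both copies cannot be assigned, so the level of C4b is uncertain.

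In the annotation's order C4b and 1110038B12Rik are separated by 6 tested genes, whose log2 fold changes ran from -0.24 to 0.22. None of those 6 was called, and neither were the other tested genes of the stretch: over the 26 genes from the 10 before C4b to the 10 after 1110038B12Rik, values ran from -0.29 to 0.22 with 0 calls. Stk19, next to C4b, was at 0.22 ± 0.13, and Neu1 and Hspa1b, on either side of 1110038B12Rik, were at -0.10 ± 0.10 and -0.19 ± 0.47. The 30 nearest tested neighbours of all 15 called genes gave 0 calls as well, with values from -0.64 to 0.30 and 2 at an unadjusted p under 0.05.

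**Figure D2:**
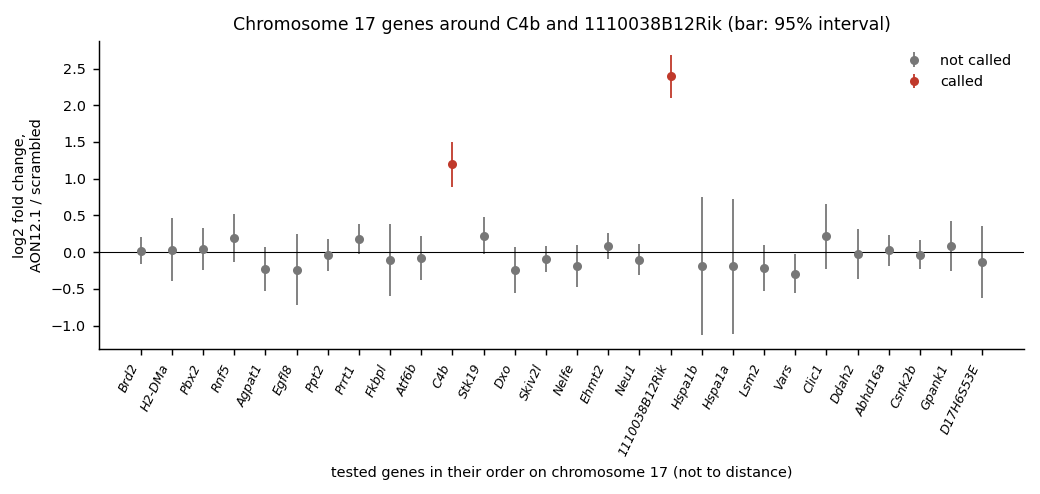
Tested genes of chromosome 17 in their annotated order, not to distance, with the log2 fold change of AON12.1 against scrambled libraries and its 95% interval. C4b at 1.19 and 1110038B12Rik at 2.39 stand above 26 neighbours that lie between -0.29 and 0.22.

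No complement gene other than C4b was called. Of 15 tested members 1 rose and 0 fell, 7 had a higher and 8 a lower value, and the median was -0.04. C1qa, a chain of C1q made by microglia, lay between 73.6 and 121 CPM with AON12.1 and between 91.2 and 149 CPM with the scrambled oligonucleotide, groups that overlap (-0.34 ± 0.12, adjusted p = 0.47; 0.17 in series 18 and -0.51 in series 19). C3, a component that acts later than C4, was too low to be tested, with 43 and 18 counts summed over the AON12.1 and scrambled libraries.

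Reactive astrocyte genes had higher values than most genes, and the only member called was C4b. Of 8 tested members, 7 had a higher value, with a median of 0.33 against 0.0074 for all genes (0.67 in series 18 and 0.23 in series 19), and 16 further members were too low to test. Serpina3n, a secreted protease inhibitor, was at 0.66 ± 0.25 (adjusted p = 0.501; with the projection neuron score as a covariate 0.95, adjusted p = 0.0447) and Vim, the filament protein vimentin, at 0.35 ± 0.13 (adjusted p = 0.513). Gfap, the astrocyte filament protein, had 50.3 to 107 CPM with AON12.1 and 37.3 to 87.3 CPM with the scrambled oligonucleotide, ranges that overlap (0.30 ± 0.18, adjusted p = 0.762). Its means were 94.5 against 51.5 CPM in series 18 and 74.9 against 68.9 CPM in series 19. Against aCSF, Gfap was among the 23 genes called higher with AON12.1 and not among the 9 called with the scrambled oligonucleotide. The summed level of all 24 listed genes was 438.1 to 659 CPM with AON12.1 and 342 to 439 CPM with the scrambled oligonucleotide, and C4b is part of that sum. Over the 25 astrocyte genes in general the median was -0.07, with 0 calls.

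Hist1h1c (ENSMUSG00000036181, chromosome 13) encodes a linker histone, which binds the DNA between nucleosomes and, unlike most histone genes, also gives polyadenylated mRNA in cells that do not divide. It ranged from 32.3 to 54.9 CPM (median 46.3) with AON12.1 and from 13.8 to 25.2 CPM (median 20.9) with the scrambled oligonucleotide. No scrambled library reached the lowest AON12.1 library. The rise was 1.16 ± 0.16 on the log2 scale, or 2.24-fold (adjusted p = 3.45e-05). Against aCSF the values were 0.92 (adjusted p = 0.00122) with AON12.1 and -0.25 (adjusted p = 0.655) with the scrambled oligonucleotide. YAC128 mice given aCSF had 17.6 to 27.8 CPM. WT mice had 19.7 to 44.9 CPM, a range that reaches into that of AON12.1. The neighbouring copies Hist1h1a, Hist1h1b, Hist1h1d and Hist1h1e had at most 4 counts each in all scrambled or all AON12.1 libraries together, against 333 and 152 of Hist1h1c in the AON12.1 and scrambled libraries. Among 14 tested histone genes with polyadenylated transcripts 1 rose and 0 fell, and the median was 0.06. H1fx, a replication-independent linker histone of chromosome 6, was at -0.27 ± 0.08 (adjusted p = 0.354), with 115 to 140 CPM against 138 to 171 CPM.

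Itgb4 (ENSMUSG00000020758, chromosome 11) encodes integrin beta-4, which pairs with alpha-6 and holds cells to laminin. AON12.1 libraries had 43.1 to 77.5 CPM with a median of 65.5 CPM, and scrambled libraries 25.02 to 41.6 CPM with a median of 36.2 CPM. The ranges came close to each other without overlapping. YAC128 mice given aCSF had 36.9 to 50.5 CPM and WT mice 18.3 to 47.1 CPM, and both ranges reach into that of AON12.1. Itgb4 rose by 0.84 ± 0.14 (log2, adjusted p = 0.00106) against the scrambled group and by 0.63 ± 0.13 against aCSF (adjusted p = 0.0157), and the scrambled oligonucleotide had -0.21 against aCSF (adjusted p = 0.651). It was the 1 gene called among 15 tested integrin and laminin genes, whose median was -0.04. Itga1, an alpha subunit, was at -0.47 ± 0.25 (adjusted p = 0.709).

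Dcdc2a (chromosome 13), a doublecortin-domain protein of microtubules, ranged from 31.8 to 54.9 CPM with AON12.1 and from 17.04 to 31.2 CPM with the scrambled oligonucleotide. Its groups were separated by less than 1 CPM, and aCSF libraries at 25.4 to 38.2 CPM lay across both. It rose by 0.81 ± 0.15 on the log2 scale (adjusted p = 0.00892) against the scrambled group, with 0.44 (adjusted p = 0.202) and -0.37 (adjusted p = 0.445) for the respective oligonucleotides against aCSF. Gab1 (chromosome 8), an adaptor that links growth factor receptors to their signalling enzymes, had 22.6 to 43.7 CPM against 11.7 to 19.7 CPM. These ranges did not overlap either. Gab1 rose by 0.81 ± 0.18 (adjusted p = 0.0329). It lost its call in 10 of 16 fits without 1 library (AON12.1 replicates 2, 4, 7 and 8, scrambled replicates 1, 3, 5, 6, 7 and 8), with adjusted p from 0.0531 to 0.119 and log2 values from 0.73 to 0.85.

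**Figure D3:**
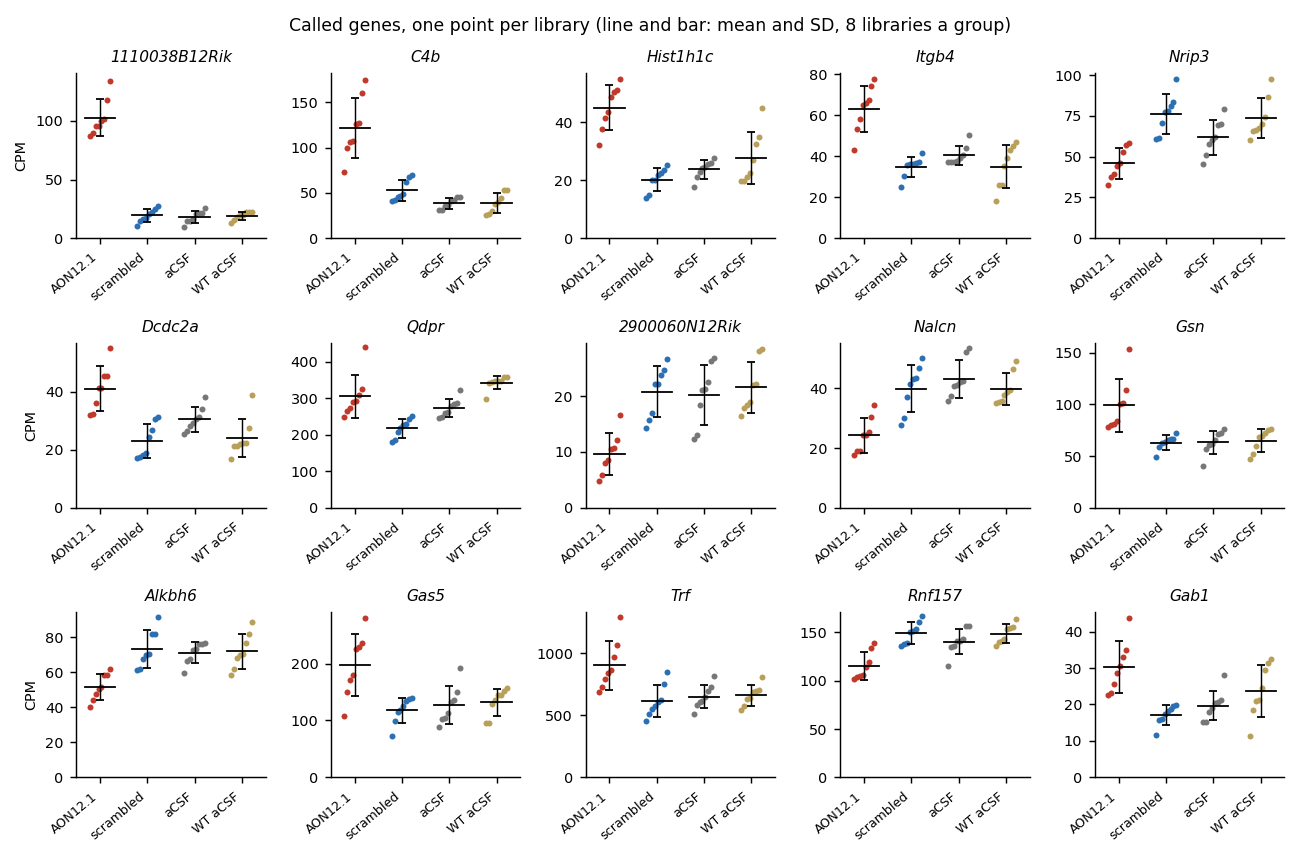
Level (CPM, axes from 0) of each called gene in every library, with mean and SD over 8 libraries a group. For 1110038B12Rik the AON12.1 points lie between 87.2 and 134 CPM, above every library of the other groups, whereas for Qdpr the scrambled group is the lowest of the 4.

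The 3 remaining genes that rose are expressed in oligodendrocytes, the cells that wrap axons in myelin. Qdpr (chromosome 5), a reductase that regenerates the cofactor of tyrosine and tryptophan hydroxylases, had 248 to 439 CPM with a median of 290.1 CPM against 179.9 to 252 CPM with a median of 223 CPM. Scrambled replicate 4, at 252.4 CPM, exceeded AON12.1 replicate 3, at 248.1 CPM, and the other libraries kept apart. The rise was 0.48 ± 0.09 (log2, adjusted p = 0.00892). For Qdpr the scrambled group was the one further from aCSF, at -0.33 ± 0.09 (adjusted p = 0.242), and the AON12.1 group was at 0.15 ± 0.09 (adjusted p = 0.539). WT mice had the highest level, 298 to 359 CPM.

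Gsn (chromosome 2) encodes gelsolin, which severs and caps actin filaments. It ranged from 78.1 to 154 CPM with AON12.1 and from 49.3 to 72.5 CPM with the scrambled oligonucleotide, without overlap, and rose by 0.63 ± 0.13 (adjusted p = 0.017). Without AON12.1 replicate 2, its highest library, the value was 0.53 and the call was lost (adjusted p = 0.0616). Trf (chromosome 9), the iron carrier transferrin, had 689 to 1289.8 CPM against 456 to 853 CPM. Scrambled replicate 4, at 853 CPM, lay within the AON12.1 range, and so did scrambled replicate 5. Trf rose by 0.55 ± 0.12 (adjusted p = 0.0309), and its call was lost in 11 of 16 fits without 1 library (AON12.1 replicates 2, 4, 5, 6 and 8, scrambled replicates 1, 2, 3, 6, 7 and 8), with adjusted p from 0.0515 to 0.146.

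Within the AON12.1 group Gsn and Trf varied together, with r = 0.95 (n = 8, exact permutation p = 0.000397, adjusted p = 0.0417) and rho = 0.90 (p = 0.00456, adjusted p = 0.24). Without the 2 libraries farthest from the median of Gsn, r was 0.81, and among the 6 mice of series 19 it was 0.92 (exact permutation p = 0.00694). This was the 1 pair of 105 among the called genes to reach an adjusted p under 0.05 in that group, while 14 pairs had an unadjusted p under 0.05. In the scrambled group 0 of 105 pairs reached it (10 unadjusted), and Gsn and Trf had r = 0.14 there (exact permutation p = 0.742). Whether the groups differ in this was not tested.

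The wider myelin list had values on both sides of 0. Of 39 tested genes of mature oligodendrocytes and myelin, 3 rose, the genes just described, and 0 fell, 22 had a higher and 17 a lower value, and the median was 0.08. Both directions held genes with an unadjusted p under 0.05, 10 higher and 5 lower of the 39. Over all 10679 tested genes 362 had such a p with a higher and 412 with a lower value (7.25% together), and 10 were called higher (0.0936%). Mbp, myelin basic protein, was at -0.11 ± 0.11 (adjusted p = 0.891), and Mog, an outer myelin glycoprotein, at -0.22 ± 0.12 (adjusted p = 0.746). AON12.1 replicate 2 stood apart with 4018 CPM of Mbp, against at most 2217.5 CPM in the other AON12.1 libraries. Without it the list's median was -0.04, and the values of Qdpr, Gsn and Trf were 0.39, 0.53 and 0.46. In series 18 they were 0.87, 1.02 and 0.94 and in series 19 0.34, 0.51 and 0.43, with 0 of the 3 called in either. Mbp was at 0.25 in series 18 and -0.27 in series 19. Klk6, a protease of oligodendrocytes, had a lower value with AON12.1 than with the scrambled oligonucleotide (-0.63 ± 0.25, adjusted p = 0.555). Against aCSF, Klk6 was among the 9 genes called higher with the scrambled oligonucleotide and was not called with AON12.1.

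Among the genes that fell, Nrip3 (ENSMUSG00000034825, chromosome 7), named as a nuclear receptor-interacting protein, had the smallest p. It lay between 32.4 and 58.2 CPM with AON12.1 (median 45.4) and between 61.0 and 98.0 CPM with the scrambled oligonucleotide (median 77.6). The groups did not overlap. Nrip3 fell by 0.72 ± 0.13 (log2, adjusted p = 0.00311), to a level 1.65-fold lower. The aCSF libraries, at 45.6 to 79.3 CPM, lay across both, with -0.42 (adjusted p = 0.135) for AON12.1 and 0.30 (adjusted p = 0.422) for the scrambled oligonucleotide against them.

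2900060N12Rik (ENSMUSG00000113621, chromosome 12) is a noncoding RNA annotated as sharing a promoter with a gene on the opposite strand, and it had the largest fall of the 5 called genes. Its AON12.1 libraries ranged from 4.86 to 16.7 CPM with a median of 9.57 CPM, and its scrambled libraries from 14.2 to 26.6 CPM with a median of 22.2 CPM. AON12.1 replicate 1 overlapped with scrambled replicates 2 and 3. It fell by 1.08 ± 0.21 (log2, adjusted p = 0.00892), and against aCSF the value with AON12.1 was -1.06 ± 0.21 (adjusted p = 0.00771). The scrambled group was at 0.02 ± 0.18 from aCSF (adjusted p = 0.994). In series 18 the value of 2900060N12Rik was -0.43 (adjusted p = 0.969) and in series 19 -1.27 (adjusted p = 0.0182), and where at most 25% of counts lay outside features it was -1.04 (adjusted p = 0.118). The annotated gene overlaps Mboat2, a phospholipid acyltransferase gene on the other strand, which was at 0.02. The sources used here do not say if counting took the strand into account, so reads of both genes may be mixed.

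Nalcn (ENSMUSG00000000197, chromosome 14) is the pore of the sodium leak channel, which sets the resting potential of neurons. It had 17.6 to 34.5 CPM with AON12.1 and 27.6 to 50.03 CPM with the scrambled oligonucleotide, with medians of 24.3 and 42.2 CPM. AON12.1 replicates 4 and 6 lay inside the scrambled range. Nalcn fell by 0.71 ± 0.14 (log2, adjusted p = 0.0157), and without AON12.1 replicate 8 the value was -0.67 and the call was lost (adjusted p = 0.0533). Against aCSF the values were -0.82 ± 0.14 (adjusted p = 0.00128) with AON12.1 and -0.11 ± 0.13 (adjusted p = 0.815) with the scrambled oligonucleotide. The channel's partners were measured too, and are named although the naming rule takes only Fam155a: Fam155a was at -0.27 ± 0.13 (adjusted p = 0.676), Unc79 at 0.04 ± 0.15 and Unc80 at -0.02 ± 0.13. Of the 13 tested genes of this complex and of voltage-gated sodium channels, 1 fell and 0 rose, with a median of 0.0019.

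Alkbh6 (chromosome 7), of the AlkB family of dioxygenases, had 40 to 62.1 CPM against 61.3 to 91.7 CPM. AON12.1 replicate 4, at 62.1 CPM, was the 1 library to reach into the scrambled range. Alkbh6 fell by 0.50 ± 0.10 (log2, adjusted p = 0.0203), with -0.46 (adjusted p = 0.0266) for AON12.1 and 0.04 (adjusted p = 0.93) for the scrambled oligonucleotide against aCSF. The call was lost without AON12.1 replicate 5 or 8 or scrambled replicate 1 or 7 (adjusted p from 0.0567 to 0.0678). Rnf157 (chromosome 11), a ubiquitin ligase of neurons, ranged from 102 to 139 CPM against 136 to 168 CPM, with AON12.1 replicate 1 inside the scrambled range. It fell by 0.38 ± 0.08 (adjusted p = 0.0312), and 10 of 16 fits without 1 library lost the call (AON12.1 replicates 2, 4, 6, 7 and 8, scrambled replicates 1, 2, 5, 6 and 8), with adjusted p from 0.0538 to 0.0891. Since the use of strand in counting is not known, the counts of Rnf157 are uncertain.

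Set beside aCSF, the called genes differed in which group stood apart. The comparisons of both oligonucleotides with aCSF share the aCSF libraries, so their values are given side by side. YAC128 aCSF replicates 1 to 4 were of series 18, as were 2 libraries of each oligonucleotide group. Those aCSF libraries had 27.5% to 31.1% of counts in no feature, and the series 18 oligonucleotide libraries 17.5% to 24.2%. In all values against aCSF, treatment is thus not fully separated from series and this share, and their parts were not tested. AON12.1 against aCSF gave 33 calls (0.309%), 23 higher and 10 lower, and 8 of the 15 genes were among them: 1110038B12Rik, C4b, Hist1h1c, Itgb4, Gsn, 2900060N12Rik, Nalcn and Alkbh6. The 15 genes were selected by values of these same AON12.1 libraries, so this overlap is not independent support. The scrambled oligonucleotide against aCSF gave 9 calls (0.0843%), all 9 higher, and none of the 15 genes was among them. For the other 7 (Nrip3, Dcdc2a, Qdpr, Gas5, Trf, Rnf157 and Gab1) neither oligonucleotide group was called against aCSF. Gas5 had log2 values of 0.63 with AON12.1 and -0.11 with the scrambled oligonucleotide (adjusted p = 0.0656 and 0.853), and Trf had 0.48 and -0.08 (adjusted p = 0.0656 and 0.867). Gab1 had 0.59 and -0.21 (adjusted p = 0.115 and 0.714) and Rnf157 had -0.28 and 0.09 (adjusted p = 0.116 and 0.711). For these 4 genes the AON12.1 group was the one further from aCSF, as it was for Gsn, at 0.64 and 0.0019 (adjusted p = 0.00937 and 1).

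**Figure D4:**
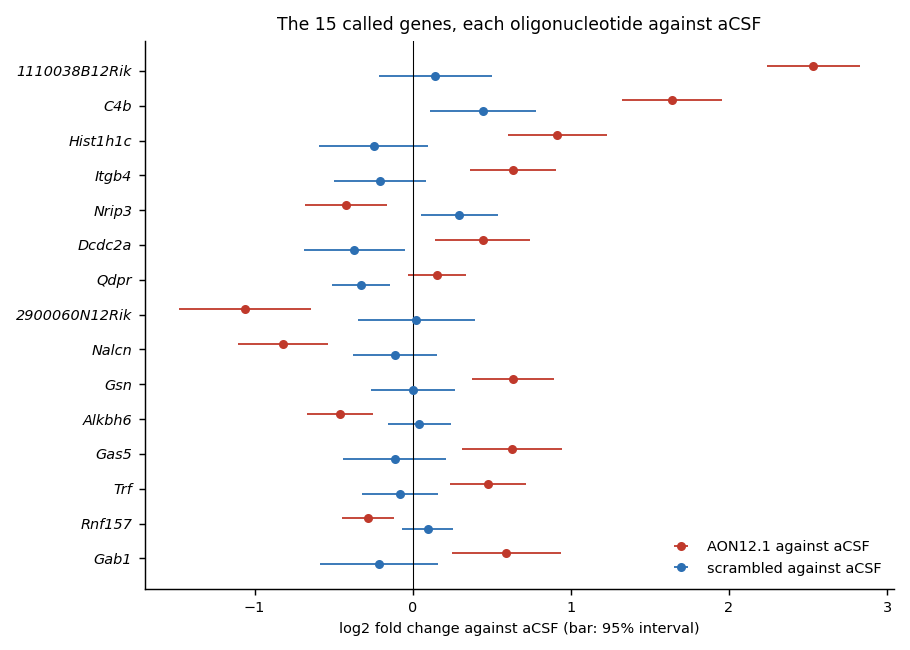
Log2 fold change of each called gene with AON12.1 (red) and with the scrambled oligonucleotide (blue) against aCSF, with 95% intervals; both use the same 8 aCSF libraries. 1110038B12Rik lies at 2.53 and 0.14, whereas Qdpr lies at 0.15 and -0.33.

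Several genes called against aCSF had overlapping levels with both oligonucleotides, and they were chosen for naming after their values were seen. Lyz2, the lysozyme of myeloid cells, had 24.2 to 42.1 CPM with AON12.1 and 18.8 to 47.4 CPM with the scrambled oligonucleotide, against 5.56 to 21.3 CPM with aCSF. The ranges of both oligonucleotide groups overlapped almost entirely, and their difference was 0.01 ± 0.19 (adjusted p = 0.997), with a 95% interval of the ratio from 0.774 to 1.32. Tyrobp, a microglial signalling adaptor, rose by 0.79 with AON12.1 (adjusted p = 0.00122) and by 0.62 with the scrambled oligonucleotide (adjusted p = 0.0443) against aCSF, with a difference of 0.16 ± 0.13 between them (adjusted p = 0.85). Prmt8, a neuronal arginine methyltransferase, rose by 0.86 and by 1.16 (adjusted p = 7.44e-05 and 1.2e-07) and was at -0.30 ± 0.12 between the oligonucleotides (adjusted p = 0.552). C1qa and C1qb rose with the scrambled oligonucleotide, by 0.62 (adjusted p = 0.019) and 0.58 (adjusted p = 0.0182), and with AON12.1 had values of 0.28 (adjusted p = 0.373) and 0.46 (adjusted p = 0.0531). Over the whole lists, 18 tested genes of resting microglia had a median of 0.06 between the oligonucleotides and 15 of activated microglia 0.06, with 0 calls in each.

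Huntingtin transcripts had overlapping levels in both groups. Mouse Htt lay between 71.3 and 121 CPM with AON12.1 and between 75.4 and 119.5 CPM with the scrambled oligonucleotide, and its ratio was 1.02 (0.861 to 1.2). The feature NM_001388492, which carries no mouse gene identifier and was at 0 to 7.06 CPM in WT libraries, had 94.4 to 177 CPM and 104 to 169 CPM in these groups (ratio 1.08, 0.891 to 1.3). The log2 value of NM_001388492 was -0.34 in series 18 and 0.25 in series 19. Counts at the 3' end give no value for how the transcript is spliced. Casp6, the gene of the protease that cuts at the named site, was too low to test, with 34 and 19 counts in total. Of 17 tested genes of caspases and apoptosis 0 were called (median -0.04), and of 30 genes of huntingtin and its binding proteins 0 were called (median 0.0064), with values from -0.23 to 0.54.

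Of the genes that differ between YAC128 and WT mice given aCSF (8 calls, 0.0749%), none was called between the oligonucleotides. Penk, the enkephalin precursor of indirect-pathway neurons, ranged from 2777 to 4688 CPM with AON12.1 and from 1339.7 to 3488 CPM with the scrambled oligonucleotide (0.40 ± 0.16, adjusted p = 0.573). The ranges overlap, and the lowest value belongs to scrambled replicate 5, with the next at 2488 CPM. Adora2a, the adenosine receptor of the same neurons, was at 0.27 ± 0.18 (adjusted p = 0.797), the cytokine gene Il33 at 0.38 ± 0.16 (adjusted p = 0.572), the kinase gene Sgk1 at 0.21 ± 0.16 (adjusted p = 0.834), the phosphodiesterase gene Enpp6 at -0.19 ± 0.16 (adjusted p = 0.867), the annexin gene Anxa5 at -0.16 ± 0.10 (adjusted p = 0.792) and the ATPase gene Spata5 at 0.19 ± 0.21 (adjusted p = 0.9).

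Genes of the projection neurons had higher values with AON12.1 while 0 of them were called. All 10 tested direct-pathway genes had a higher value, with a median of 0.37 against 0.0074 for all genes, as had 6 of 8 indirect-pathway genes (median 0.28) and 25 of 29 genes of both kinds of projection neuron (median 0.31). Tac1, the substance P precursor, had 650.1 to 993 CPM against 349 to 892 CPM, with 3 scrambled libraries inside the AON12.1 range (0.43 ± 0.14, adjusted p = 0.447). Pdyn, the dynorphin precursor, was at 0.42 ± 0.15 (adjusted p = 0.47), the dopamine receptor gene Drd1 at 0.42 ± 0.17 (adjusted p = 0.572) and the transcription factor gene Six3 at 0.40 ± 0.12 (adjusted p = 0.34). Without scrambled replicate 5 the median of the 29 genes was 0.20 and that of the indirect-pathway genes 0.19, and without AON12.1 replicate 2 the latter was 0.16. In series 18 the medians of these 2 lists were 0.15 and 0.19. With a score of these genes as a covariate, an alternative chosen after seeing the data, 13 genes were called. Those without a call there had values of 0.50 (Gsn), 0.80 (Gab1), 0.57 (Trf) and 0.62 (Gas5), with adjusted p from 0.0555 to 0.109, and Serpina3n was called in that fit, at 0.95 (adjusted p = 0.0447).

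Of 12 tested cortical excitatory neuron genes, 11 had a lower value with AON12.1 (median -0.19), with 0 called and 1 at an unadjusted p under 0.05. That median was -0.37 in series 19 and 0.27 in series 18, -0.04 without scrambled replicate 5, -0.11 without AON12.1 replicate 4 and -0.29 without AON12.1 replicate 1. Both groups had a positive median for these cortical neuron genes against aCSF, 0.30 with AON12.1 and 0.48 with the scrambled oligonucleotide. Neurod2, a transcription factor of those neurons, was at -1.18 ± 0.53 (adjusted p = 0.639), with scrambled replicate 5 at 297 CPM and the other scrambled libraries at most 120.3 CPM. The part of tissue composition in the projection neuron values was not tested. The median of those 29 genes was 0.32 with cortical and choroid plexus scores as covariates. It was 0.21 in the libraries where at most 25% of counts lay outside features. Among immediate early genes, which neuronal activity induces, 0 of 24 were called (median -0.02), with Nr4a2 at -1.16 ± 0.32 (adjusted p = 0.263) and Bdnf, a growth factor gene, at -1.20 ± 0.43 (adjusted p = 0.491).

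Other gene groups that an oligonucleotide could affect gave 0 calls. Interferon response genes had a median of 0.23 (10 of 13 with a higher value; 0.14 in series 18 and 0.15 in series 19), with Ifit3 at 0.49 ± 0.21 (adjusted p = 0.611). Their median against aCSF was 0.10 with AON12.1 and -0.15 with the scrambled oligonucleotide. Cholesterol synthesis genes had a median of -0.15 (22 of 27 with a lower value), which was -0.02 in series 18, -0.19 in series 19 and -0.08 where at most 25% of counts lay outside features. Its members with the smallest p were Pmvk at -0.30 ± 0.11, Dhcr7 at -0.33 ± 0.14 and Sqle at -0.37 ± 0.17, all enzymes of that pathway (adjusted p = 0.502, 0.597 and 0.646). The median was -0.0085 for 25 genes of proteins known to bind phosphorothioate oligonucleotides, 0.06 for 25 nonsense-mediated decay factors, 0.04 for 62 ribosomal protein genes and -0.06 for 26 heat shock genes.

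**Figure D5:**
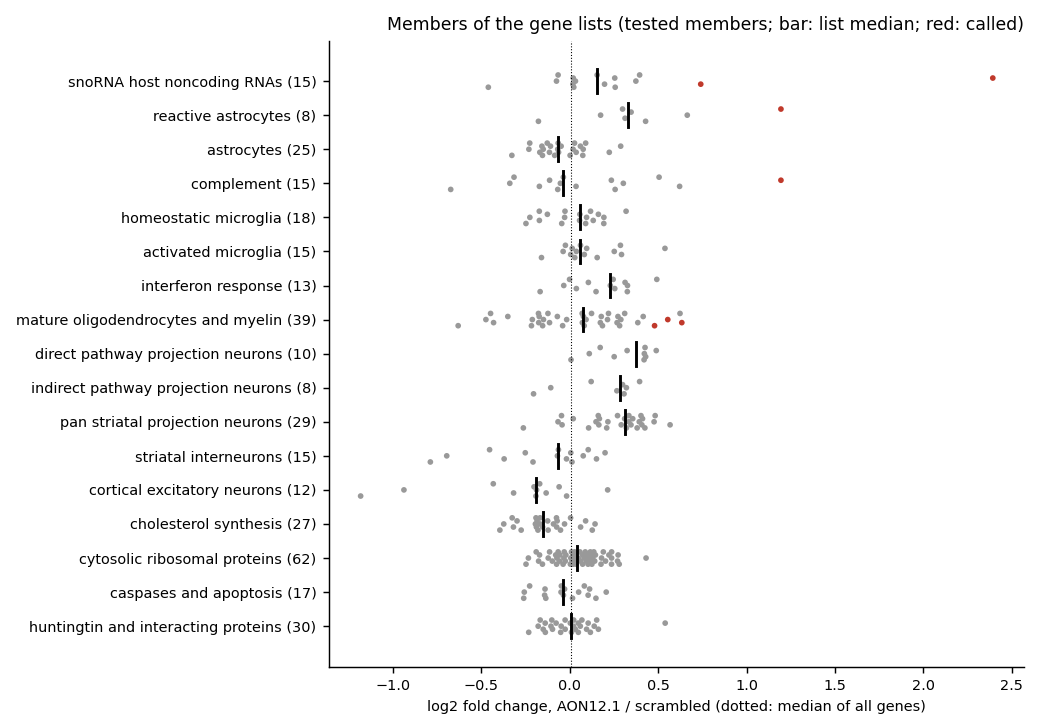
Log2 fold change (AON12.1 against scrambled) of every tested member of 17 gene lists, with the list median as a black bar, called genes in red and the median of all genes as a dotted line. Projection neuron lists have medians of 0.28 to 0.37 without a called member, while the 2 red points of the snoRNA host list stand at 0.74 and 2.39.

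Below the threshold, the genes next in order of p completed 15 genes in each direction, and none of them was called. They were 5 with a higher value (Zfp672, Slc22a15, Krt9, Sgce and Fam229b) and 10 with a lower value (Kcnj10, Doc2g, Mettl26, Sncb, Ywhaz, Lmna, Akr7a5, Nwd2, Nr4a2 and Pgls). Kcnj10, the potassium channel by which astrocytes buffer potassium, had 66.8 to 107 CPM against 101 to 142 CPM (-0.42 ± 0.10, adjusted p = 0.115). Sncb, beta-synuclein of presynaptic terminals, was at -0.42 ± 0.11, and Ywhaz, a 14-3-3 adaptor, at -0.37 ± 0.09 (adjusted p = 0.136 and 0.142), and DESeq2 called these and Kcnj10 and Zfp672. Krt9, a keratin gene, and Mettl26, a methyltransferase-like gene, were called for AON12.1 against aCSF, at 0.87 ± 0.20 and -0.61 ± 0.12 (adjusted p = 0.0334 and 0.00801). Slc22a15, a solute carrier gene, reached 2.52 ± 0.61 (adjusted p = 0.109) through 1 library: AON12.1 replicate 1 had 379.9 CPM and the others 9.71 to 18.7 CPM, within or just above the scrambled range of 6.36 to 16.8 CPM.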

How the data were processed

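Striatal RNA was profiled with a barcoded oligo-dT primer by a modified mcSCRB-seq method from 100 ng of total RNA, per the labels' protocols. The submitters' processing notes name FastQC, cutadapt 2.10, STAR 2.7.5a, HTSeq 0.12.4 and the GRCm39 build. The primer carried a molecular identifier, per the labels, but the sources used here do not say if duplicates were removed by it. Each deposited file lists unnormalized gene counts of 1 library, and its summary lines were left out of tests.

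All 32 libraries entered 1 fit in edgeR 4.0.16 (R 4.3.3): filterByExpr (counts of at least 10, totals of at least 15), TMM normalization and a quasi-likelihood model with 1 coefficient per group. Genes were called at a Benjamini-Hochberg adjusted p under 0.05 over 10679 genes. Levels are TMM-normalized CPM, fold changes are log2 ± SE, and intervals cover 95%. Each library comes from a separately numbered mouse, so the spread includes that between mice. The fit was checked on simulated data.

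Symbols and gene order were looked up by Ensembl identifier in an annotation of GRCm38, so no GRCm39 coordinates are given. The comparison, gene lists and tests were chosen with earlier results of these data known. Named genes are all called genes with a symbol, the next by p up to 15 each way, up to 3 members of each list by smallest p, the genotype calls and reference genes. Predicted and sex-linked genes were left out. Alternatives were other normalizations, filters, tools (DESeq2 1.42.0, voom in limma 3.58.1), covariates, subsets and leaving out each library. A few genes that the naming rule takes are not reported here. All pairs of libraries within a group differed by more than sampling noise.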

Additional observations from a re-analysis of the deposited data

Results flagged for a closer look

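Within each group of 8, a library was singled out where its gap to the nearest library was large for the group's range (Dixon's test). Chance gives about 1 in 20 for independent, normally distributed values. The groups of values here share the same libraries, so their number cannot be set against that rate. Of 136 groups of values, 18 had such a library. AON12.1 replicate 2 was the outlying library in 7 of them. It was the highest AON12.1 library for Qdpr (439 CPM, next 324), Gsn (153.7, next 113.7), Adora2a (127.8, next 83.2), Mbp (4018, next 2217.5), Scn4b (383.6, next 211) and Il33 (98.7, next 58.2), and it had the fewest gene counts, 658934.

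Scrambled replicate 5 was the outlying library in 5. It was highest for Nwd2 (58.7 CPM, next 23.3), Fam155a (345, next 224) and Neurod2 (297, next 120.3), and lowest for Penk (1339.7, next 2488) and Six3 (205, next 377).

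AON12.1 replicate 1 stood apart for Slc22a15 (379.9 CPM, next 18.7) and Nr4a2 (24.4, next 12.8), and AON12.1 replicate 5 for Pmvk (87.4, next 70.04). Scrambled replicate 1 stood apart for Doc2g (106.5 CPM, next 51.5), scrambled replicate 3 for Tyrobp (261, next 192.5) and scrambled replicate 8 for Serpina3n (31.8, next 21.7).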

How the results depend on the processing

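The count of called genes (15, 10 higher and 5 lower) was 7 (5 and 2) with both groups fitted alone, 5 (4 and 1) in series 19, 1 (1 and 0) in series 18 and 8 (7 and 1) in the libraries where at most 25% of counts lay outside features (5 and 7 libraries), subsets with fewer samples. In series 18, where edgeR called 0 genes lower, 498 genes had an unadjusted p under 0.05 in either direction. DESeq2 called 20 (12 and 8), voom 13, no filter on low counts 20, a minimum count of 30 gave 13, cortical and choroid plexus scores as covariates 13, and the other normalizations 15. Leaving out 1 library gave 10 to 17 genes, 6 to 10 higher and 2 to 7 lower. Every called gene that was tested kept its sign in all 32 settings. C1qa (0.17), Neurod2 (0.66), Bdnf (0.95), Mbp (0.25), NM_001388492 (-0.34), C1qb (0.066) and Itga1 (0.0023) changed sign in series 18, and Htt and Lyz2, with values near 0, did so in series 19. The difference in counts outside features turned in series 18 (-4.09 against 1.71 percentage points overall). The cause of these changes was not tested. No paired analysis was possible because the labels give animal numbers that are not shared between groups. Depth of 658934 to 1419313 counts limits genes at or below 20 CPM, with a median SE of 0.24.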
